A study of Caenorhabditis elegans with 4 samples.

Results

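The TGF-β genes of *Caenorhabditis elegans* were examined in adult neurons labeled by *Pacr-2*::*gfp*. The set was chosen by name, as the genes for the ligands *unc-129*, *dbl-1*, *daf-7* and *tig-2*, the receptors *daf-1*, *daf-4* and *sma-6*, and the Smads *sma-2*, *sma-3* and *sma-4*. All 10 genes had 1 locus each in both wild-type expression tables, which together held 41560 gene symbols.

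The study sequenced RNA from neurons of wild type and of *acr-2(gf)*, a strain with a gain-of-function mutation in an acetylcholine receptor subunit of cholinergic motoneurons. It has 4 samples, 2 of *acr-2(gf)* (strain CZ5808) and 2 of wild type (strain CZ631). Both strains carry the integrated reporter *juIs14*, in which the *acr-2* promoter drives GFP. All were grown for 72 h at 20 °C from arrested L1 larvae and were sorted as young adults by fluorescence after the animals had been dissociated. The reporter labels the VA, VB, DA and DB motoneurons of the ventral cord together with head and tail neurons that have not been identified, so each library pools several neuron classes from many animals. Every value below is from the sorted cells of wild type. No table of *acr-2(gf)* was used here, and no effect of *acr-2(gf)* on these genes was measured. The 2 wild-type libraries are called library 2 and library 1.

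TGF-β ligands are secreted dimers that bring a type II and a type I receptor kinase together, and the type I receptor then phosphorylates receptor-regulated Smads, which enter the nucleus with a co-Smad. *C. elegans* has a body-size pathway, in which the BMP-like ligand DBL-1 acts through SMA-6, DAF-4 and the Smads SMA-2, SMA-3 and SMA-4, and a dauer pathway, in which DAF-7 acts through DAF-1, DAF-4 and the Smads DAF-8 and DAF-14 against DAF-3 and DAF-5. UNC-129 is a divergent ligand that guides motor axons towards the dorsal cord together with the netrin receptors. Ventral cord motoneurons are a known source of DBL-1 and, for the DA and DB classes, of UNC-129.

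By the median level of each group, the ligand genes were highest, the receptors intermediate and the Smads of the body-size pathway low, though the ranges of the groups overlapped. Levels are given as FPKM, a fragment count scaled to the length of the transcript and to the size of the library, which allows genes of different length to be compared. The median of the mean FPKM was 101 for the 4 ligands, 16.2 for the 3 receptors and 1.96 for the 3 Smads. The exceptions were the ligand *daf-7*, whose mean of 6.95 FPKM was below those of *daf-4* and *daf-1*, and the receptor *sma-6*, whose mean of 0.955 FPKM was below those of all 3 Smads. With the limit for an expressed gene taken from the study's methods, over 10 FPKM in both libraries, *unc-129*, *dbl-1*, *tig-2*, *daf-4* and *daf-1* passed. These are 5 of the 10 genes (50%), against 32.9% of the 17886 protein-coding genes in the tables. With 10 genes this difference rests on very few of them, and no test was made. In RNA from a pooled sort, fewer cells of a type and less RNA per cell cannot be told apart.

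**Figure D1:**
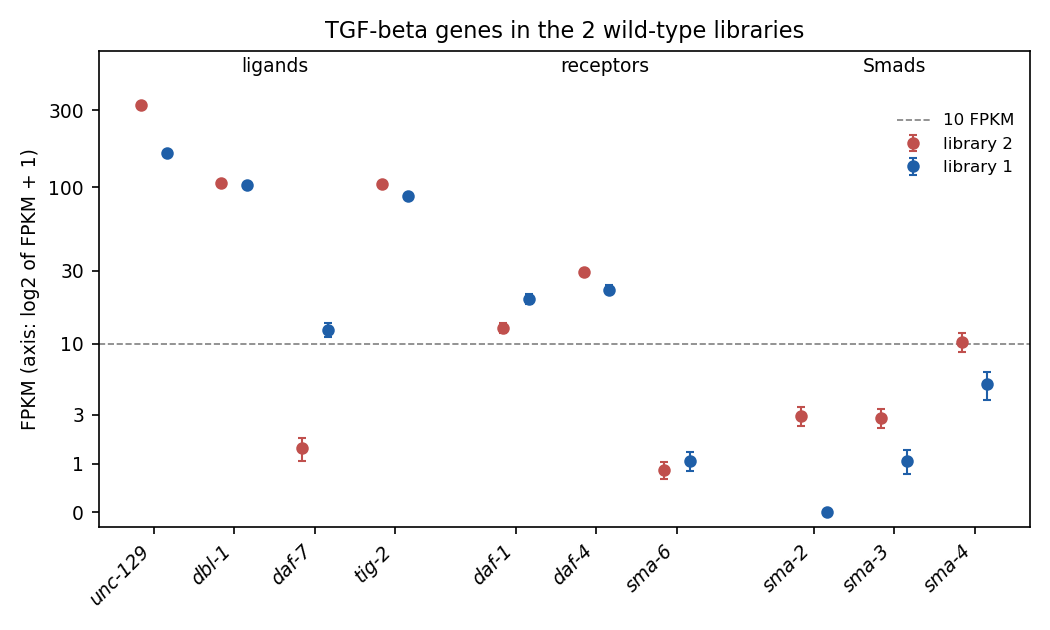
FPKM of the 10 TGF-β genes on a log2(FPKM + 1) axis in library 2 (red) and library 1 (blue), with the 95% interval around each value and a dashed line at 10 FPKM. The ligands *unc-129*, *dbl-1* and *tig-2* lie highest, *daf-7* lies on opposite sides of the line in the 2 libraries, and *sma-2* is listed at 0 in library 1.

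*unc-129* had the highest level of the set. Its locus (WBGene00006852, chrIV:9003105-9005370, ce10) had 323 FPKM in library 2, with a 95% interval of 318 to 329, and 163 FPKM in library 1, with an interval of 159 to 167. Library 2 was thus 1.98-fold above library 1 and the intervals lay far apart, so the level of *unc-129* is known at best to within about this factor. The mean of 243 ± 113 FPKM (SD, n = 2) was above that of 95.6% of protein-coding genes. Even its lower value exceeded every value of the other members.

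*dbl-1*, which sets body size, had the smallest relative gap between the libraries of the set. It had 107 FPKM in library 2 and 103 FPKM in library 1 (WBGene00000936, chrV:6758268-6759922), and its intervals of 103 to 110 and 99.5 to 107 FPKM overlapped. The mean was 105 ± 2.60 FPKM (SD, n = 2), above that of 91.1% of protein-coding genes.

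*tig-2* encodes another secreted member of the family, and its level was close to that of *dbl-1*. It had 105 FPKM in library 2 and 88.0 FPKM in library 1 (WBGene00006570, chrV:4726782-4730106), a ratio of 1.19, and a mean of 96.4 ± 11.8 FPKM (SD, n = 2). The values of *dbl-1* and *tig-2* overlapped across the libraries, so their order cannot be given.

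*daf-7*, the dauer pathway ligand known from the ASI sensory neurons, differed from the other ligands. It had 1.48 FPKM in library 2, with an interval of 1.08 to 1.89, and 12.4 FPKM in library 1, with an interval of 11.1 to 13.7 (WBGene00000903, chrIII:811932-813269). Library 1 was 8.37-fold higher, and *daf-7* passed 10 FPKM in library 1 only. Its SD of 7.73 FPKM was larger than its mean of 6.95 FPKM (n = 2). Such a gap was uncommon at this level, as 75 of the 1743 genes with a mean of 5 to 10 FPKM and a value above 0 in both libraries (4.30%) differed at least as much.

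Of 3 ASI markers, 1 had a gap between the libraries like that of *daf-7*. *daf-28*, an insulin-like gene of the ASI and ASJ neurons, had 15.5 FPKM in library 2 and 116 FPKM in library 1, which was 7.48-fold higher. The ratio of *daf-28* to *daf-7* was therefore similar within each library, at 10.5 in library 2 and 9.34 in library 1. The other ASI markers did not accompany them, since *str-3* was listed at 0 in both libraries and *gpa-4* had 0.104 FPKM in library 2 and 0 in library 1. The summed level of the 3 ASI markers, 15.6 FPKM in library 2 and 116 FPKM in library 1, was thus almost entirely *daf-28*. The part of ASI neurons in the *daf-7* values was not tested.

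Within a library, the ligands can be set against each other without any scaling between libraries. The 4 ligands summed to 536 FPKM in library 2 and 367 FPKM in library 1. *unc-129* made up 60.3% of this sum in library 2 and 44.5% in library 1, *dbl-1* 19.9% and 28.1%, *tig-2* 19.5% and 24.0%, and *daf-7* 0.276% and 3.39%. *unc-129* was 3.03-fold above *dbl-1* in library 2 and 1.58-fold in library 1. It led the ligands in both libraries, by a margin that was not stable.

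*daf-4* encodes the only type II receptor of the set, shared by both pathways, and had the highest receptor level. It had 29.2 FPKM in library 2, with an interval of 27.5 to 30.8, and 22.6 FPKM in library 1, with an interval of 21.2 to 24.1 (WBGene00000900, chrIII:5625100-5631801). The mean was 25.9 ± 4.60 FPKM (SD, n = 2), above that of 75.8% of protein-coding genes. The gene model C05D2.11, with 12.4 FPKM in library 2 and 9.86 FPKM in library 1, lies inside this locus on the same strand, so the split of reads between the 2 is uncertain.

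*daf-1*, the type I receptor of the dauer pathway, was lower than *daf-4* in each library. It had 12.7 FPKM in library 2, with an interval of 11.7 to 13.6, and 19.8 FPKM in library 1, with an interval of 18.4 to 21.2 (WBGene00000897, chrIV:132451-137621). The mean was 16.2 ± 5.03 FPKM (SD, n = 2), and library 1 was 1.56-fold higher. *daf-4* exceeded *daf-1* by 2.30-fold in library 2 and by 1.14-fold in library 1, so the libraries shared the order but not its size.

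*sma-6*, the type I receptor through which DBL-1 acts, was near the bottom of the set. It had 0.831 FPKM in library 2 and 1.08 FPKM in library 1 (WBGene00004860, chrII:6324457-6327108), with overlapping intervals of 0.616 to 1.05 and 0.807 to 1.35 FPKM. The mean of 0.955 ± 0.174 FPKM (SD, n = 2) was above that of 38.2% of protein-coding genes. The ligand and its type I receptor thus stood far apart in these libraries. *dbl-1* was 128-fold above *sma-6* in library 2 and 95.6-fold in library 1. The part of other cells in the *sma-6* values was not tested. *daf-4* was 35.1-fold above *sma-6* in library 2 and 21.01-fold in library 1, and *daf-1* was 15.2-fold above it in library 2 and 18.4-fold in library 1. The type I receptor of the dauer pathway was therefore the more abundant of the type I pair in both libraries.

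Of the Smads, none passed 10 FPKM in both libraries, and each was higher in library 2. *sma-4*, the co-Smad, had 10.3 FPKM in library 2, with an interval of 8.82 to 11.8, and 5.16 FPKM in library 1, with an interval of 3.94 to 6.38 (WBGene00004858, chrIII:5816233-5820021). Its mean was 7.74 ± 3.65 FPKM (SD, n = 2). A 2.00-fold gap of this kind was common, as 44.5% of the genes with a mean of 5 to 10 FPKM differed at least as much.

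*sma-3*, a receptor-regulated Smad, had 2.83 FPKM in library 2, with an interval of 2.32 to 3.35, and 1.08 FPKM in library 1, with an interval of 0.730 to 1.44 (WBGene00004857, chrIII:6861037-6863909). Its mean was 1.96 ± 1.24 FPKM (SD, n = 2). *sma-4* was 3.64-fold above *sma-3* in library 2 and 4.76-fold in library 1.

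*sma-2*, the other receptor-regulated Smad, had 2.94 FPKM in library 2, with an interval of 2.43 to 3.45, and was listed at 0 in library 1 (WBGene00004856, chrIII:8750527-8756921). A listed 0 can be a failed estimate and gives no fold change. Among 745 genes with an interval in library 2 about as wide, relative to its value, as that of *sma-2* (the width that 100 to 150 fragments would give), 89 (11.9%) were listed at 0 in library 1. In the opposite direction, 16 of 902 such genes in library 1 (1.77%) were listed at 0 in library 2. The locus of *sma-2* also contains the gene model ZK370.8, with 18.2 FPKM in library 2 and 15.5 FPKM in library 1, and no strand was stated for the counting, so reads of the 2 may not be separable.

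Ordered by mean, the genes ran *unc-129*, *dbl-1*, *tig-2*, *daf-4*, *daf-1*, *sma-4*, *daf-7*, *sma-3*, *sma-2* and *sma-6*. Of the 9 pairs of neighbours in this order, 5 had overlapping values. These were *dbl-1* and *tig-2*, *sma-4* and *daf-7*, *daf-7* and *sma-3*, *sma-3* and *sma-2*, and *sma-2* and *sma-6*. The steps below *unc-129*, *tig-2*, *daf-4* and *daf-1* held in every pairing of the libraries, with ratios of means of 2.32, 3.72, 1.60 and 2.10. The upper 5 genes were thus ordered apart from *dbl-1* and *tig-2*, and the lower 5 could not be ordered among neighbours.

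The difference between the 2 wild-type libraries is the only measure at hand of the replicate error of these levels. The intervals of 7 of the 9 genes above 0 in both libraries did not overlap (*unc-129*, *daf-7*, *tig-2*, *daf-1*, *daf-4*, *sma-3* and *sma-4*), against 75.3% of all genes above 0 in both. Of the 5 genes over 10 FPKM in both, 4 did not overlap, against 75.7% of all such genes. These shares are close to the background, so the interval of a single library was too narrow to stand for the spread between libraries, for these genes as for others. Of the 10 genes, 7 were higher in library 2 and 3 (*daf-7*, *daf-1* and *sma-6*) in library 1, beside 65.7% of protein-coding genes above 0 in at least 1 library that were higher in library 2. The median of log2(FPKM + 1) in library 2 minus library 1 was 0.30 over the 10 genes and 0.12 over the 6840 genes over 10 FPKM in both. Of these 6840 genes, whose median ratio between libraries was 1.33-fold, 14.9% differed at least as much as *unc-129*.

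**Figure D2:**
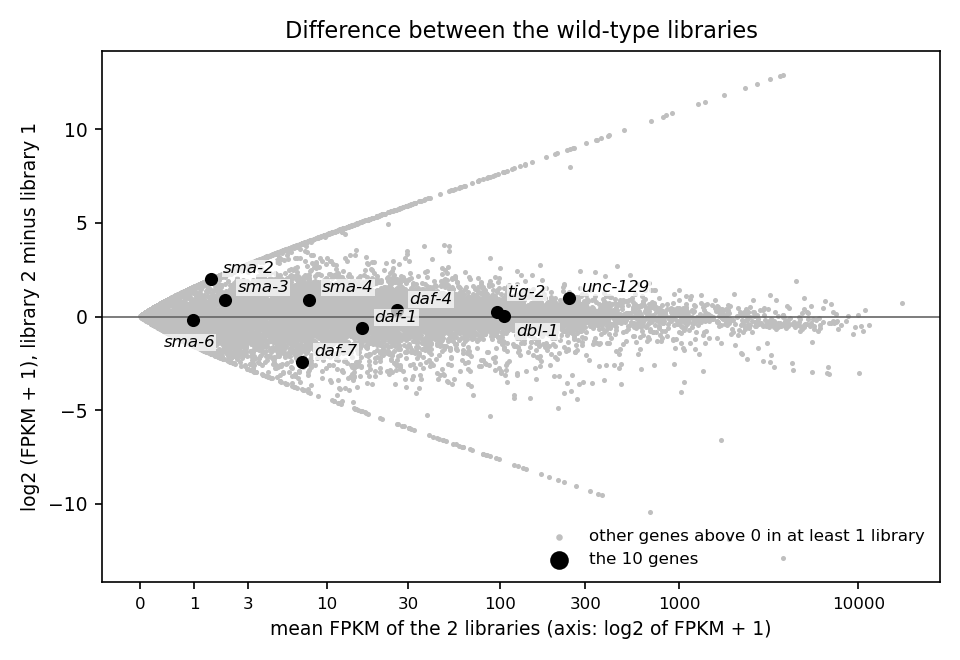
Difference in log2(FPKM + 1), library 2 minus library 1, against the mean FPKM of both libraries on a log2(FPKM + 1) axis, for the 10 TGF-β genes (black, named) and the other genes above 0 in at least 1 library (gray). *daf-7* is the lowest of the 10 at -2.43, *unc-129* stands at 0.98 and *dbl-1* at 0.05, and *sma-2* lies on the upper edge formed by genes listed at 0 in library 1.

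The Smads of the dauer pathway were more abundant than those of the body-size pathway. *daf-14*, a receptor-regulated Smad, had 156 FPKM in library 2 and 169 FPKM in library 1, and *daf-8*, of the same class, had 22.2 and 16.0 FPKM. *daf-3*, the co-Smad that DAF-7 signalling opposes, had 35.2 FPKM in library 2 and 31.6 FPKM in library 1, and *daf-5*, a Ski family partner of DAF-3, had 135 and 188 FPKM. All 4 passed 10 FPKM in both libraries, where none of *sma-2*, *sma-3* and *sma-4* did. The groups did not overlap in either library, the nearest pair being *daf-8* and *sma-4*, with *daf-8* 2.15-fold higher in library 2 and 3.11-fold in library 1. In sum, *sma-2*, *sma-3* and *sma-4* had 16.1 FPKM in library 2 and 6.24 FPKM in library 1, against 348 and 404 FPKM for the 4 dauer pathway genes. The latter sum includes *daf-5*, which is not a Smad, so the sums are not of like sets. This contrast was chosen after the values had been seen.

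The type I receptors had the same order as the Smads of their pathways, with *daf-1* above *sma-6*, and the ligands had the opposite one, with *dbl-1* above *daf-7* in both libraries. Of the remaining listed genes of the pathway, *tig-3*, a ligand gene, was low, at 0.580 FPKM in library 2 and 1.72 FPKM in library 1.

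Among 10 listed genes for extracellular and cell surface proteins that modulate DBL-1 signalling, 5 passed 10 FPKM in both libraries, against 32.9% of protein-coding genes. They were *tsp-12* and *tsp-21* (tetraspanins), *sup-17* (an ADAM metalloprotease), *crm-1* (a crossveinless-like secreted protein) and *adt-2* (an ADAMTS protease). *tsp-12* was the highest of them, with 41.2 FPKM in library 2 and 47.2 FPKM in library 1, and the other 4 lay between 13.3 and 35.3 FPKM in library 2 and between 10.3 and 24.6 FPKM in library 1. *unc-40*, which encodes the DCC and neogenin homolog, had 20.1 FPKM in library 2 and 9.75 FPKM in library 1, and *tsp-14* had 21.9 and 9.63 FPKM, so both passed in library 2 only. The co-receptor genes *drag-1* (2.33 FPKM in library 2 and 3.16 FPKM in library 1) and *sma-10* (5.36 and 6.34 FPKM), and the glypican gene *lon-2* (4.43 and 5.79 FPKM), stayed below the limit in both, as *sma-6* did.

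*sma-9*, which encodes a Schnurri-like nuclear cofactor of the body-size pathway, had 30.8 FPKM in library 2 and 16.2 FPKM in library 1, above each of the 3 SMA Smads in the same library. *lon-1*, a gene that the DBL-1 pathway represses in the hypodermis, had 71.6 FPKM in library 2 and 52.7 FPKM in library 1. The netrin genes with which *unc-129* acts were also present. *unc-5*, a netrin receptor, had 42.9 FPKM in library 2 and 35.2 FPKM in library 1, and *unc-6*, netrin itself, had 113 and 45.3 FPKM, so that *unc-6* and *unc-129* were both higher in library 2. In all, 13 of the 19 other genes of the list passed 10 FPKM in both libraries, against 32.9% of protein-coding genes, with a median mean of 22.1 FPKM. Higher in library 2 were 12 of the 19, a share close to the 65.7% of protein-coding genes. The loci of *lon-2*, *crm-1*, *tsp-14*, *adt-2*, *lon-1*, *unc-5* and *unc-6* overlap other gene models, so their reads may have been split. The same holds for many of the marker genes, among them *daf-28*, *unc-17*, *acr-2*, *vab-7*, *unc-25*, *pat-10* and *tni-4*.

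**Figure D3:**
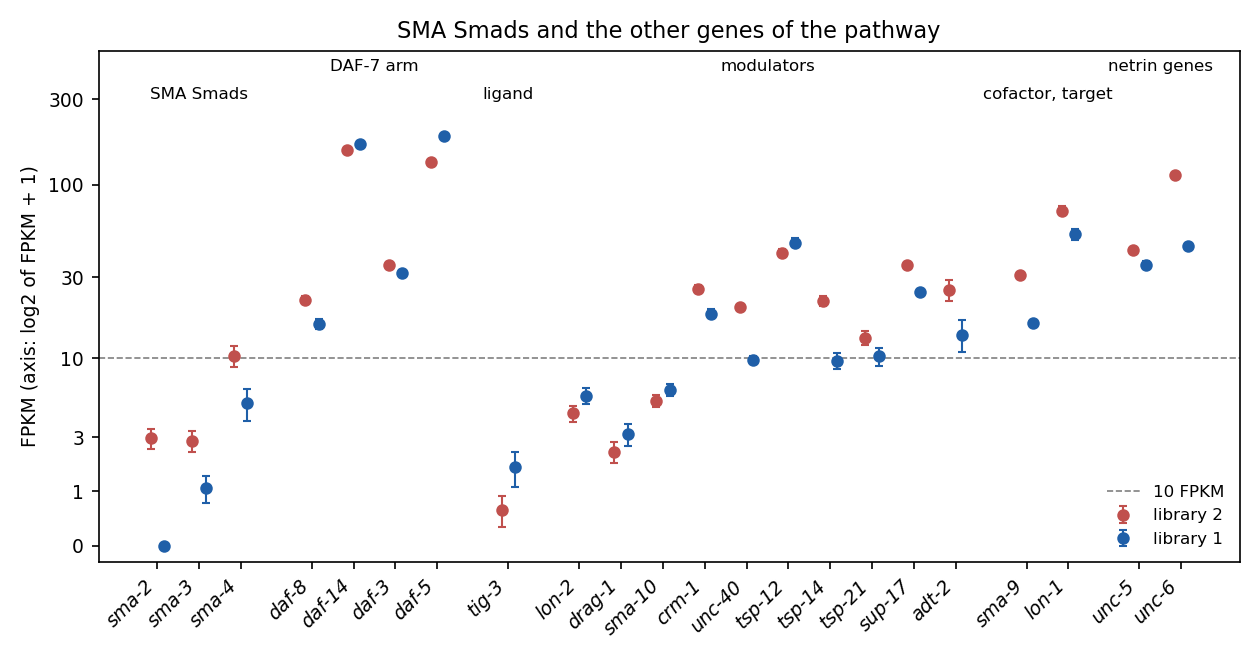
FPKM of *sma-2*, *sma-3* and *sma-4* and of the 19 other listed genes of the pathway on a log2(FPKM + 1) axis in library 2 (red) and library 1 (blue), with 95% intervals and a dashed line at 10 FPKM. The 4 dauer pathway genes lie above all 3 SMA Smads within each library, and *daf-14* and *daf-5* are the highest of them.

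Markers of the labeled neurons and of other cells were read beside these values. In both libraries, the limit of 10 FPKM was passed by all 4 core cholinergic genes and by 5 of 6 genes that mark cholinergic motoneurons of the ventral cord. *unc-17*, the vesicular acetylcholine transporter, had 573 FPKM in library 2 and 395 FPKM in library 1, *unc-4*, of A-class motoneurons, had 274 and 218 FPKM, and *vab-7*, of DB motoneurons, had 84.7 and 69.0 FPKM. Genes of other cells were also over 10 FPKM in both libraries, in 3 of 5 GABAergic, 5 of 7 body-wall muscle, 2 of 5 pharyngeal muscle, 2 of 6 hypodermal and 4 of 6 intestinal markers, and in 0 of 4 markers of the AFD neurons. The counts for pharyngeal muscle and hypodermis are close to the 32.9% of all protein-coding genes. In the AFD list, *gcy-8*, *gcy-18* and *gcy-23* were at 0 in library 1. The most abundant gene of each list was *pat-10* in body-wall muscle (3957 FPKM in library 2 and 3693 FPKM in library 1), *col-19* in hypodermis (2652 and 2214 FPKM), *mtl-2* in intestine (1004 and 1767 FPKM), *unc-25* in GABAergic neurons (536 and 226 FPKM) and *tni-4* in pharyngeal muscle (119.8 and 112 FPKM).

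Several of these lists moved between the libraries. Most genes in the lists of the labeled neurons were higher in library 2, as *unc-129* and the 3 Smads were. So were 65.7% of protein-coding genes above 0 in at least 1 library. The lists are short, and no count below was tested against that share. The core cholinergic genes summed to 1191 FPKM in library 2 and 885 FPKM in library 1, with 4 of 4 higher in library 2. By gene this was 1.45-fold for *unc-17*, 1.66-fold for *cha-1*, 1.05-fold for *cho-1* and 1.04-fold for *ace-2*. The genes of cholinergic motoneurons summed to 710.4 and 529 FPKM, with 5 of 6 higher in library 2. The exception was *acr-2*, whose promoter drives the reporter. It had 53.1 FPKM in library 2 and 58.3 FPKM in library 1, with overlapping intervals. The GABAergic markers summed to 659 FPKM in library 2 and 270.0 FPKM in library 1, with 5 of 5 higher in library 2. Body-wall muscle, which also makes UNC-129, summed to 6505 FPKM in library 2 and 6642 FPKM in library 1, a sum carried mostly by *pat-10* and *lev-11*. Of its 7 markers, 4 were higher in library 2, among them *myo-3* by 1.62-fold and *unc-22* by 1.73-fold. The other 3 were higher in library 1, *unc-54* by 1.29-fold, *lev-11* by 1.24-fold and *unc-15* by 1.12-fold. The median log2 difference of the list was 0.012. Hypodermal markers summed to 2775 FPKM in library 2 and 2355 FPKM in library 1, with 5 of 6 higher in library 2. Intestinal markers summed to 2081 FPKM in library 2 and 4362 FPKM in library 1, a sum carried mostly by *mtl-2* and *asp-1*. Of the 6, 5 were higher in library 1, the direction of *daf-7*, *daf-1* and, with overlapping intervals, *sma-6*. The exception, *elt-2*, was 3.20-fold higher in library 2, at 5.36 against 1.68 FPKM. Of the pharyngeal muscle markers, 4 of 5 were likewise higher in library 1. They summed to 142 FPKM in library 2 and 147 FPKM in library 1. All 4 AFD markers were higher in library 2, with sums of only 2.37 FPKM in library 2 and 1.03 FPKM in library 1. The part of other cells in the values of the TGF-β genes was not tested.

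**Figure D4:**
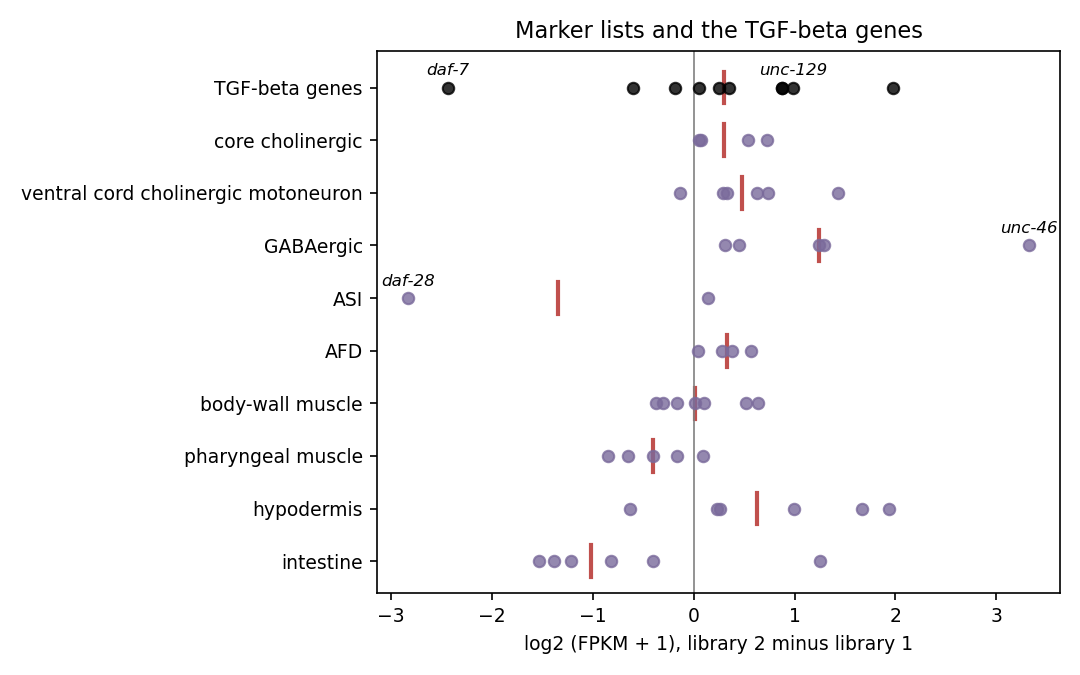
Difference in log2(FPKM + 1), library 2 minus library 1, for each TGF-β gene (black) and each marker gene (purple), 1 row per list. Genes at 0 in both libraries, here *str-3*, are not drawn. A red bar marks the median of the genes drawn, which for ASI is that of *gpa-4* and *daf-28* alone. Over all 3 ASI genes the median was 0. *daf-7* at -2.43 lies nearest to *daf-28* at -2.83, and *unc-129* at 0.98 lies within the range of the motoneuron, GABAergic, hypodermal and intestinal markers.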

How the data were processed

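GFP+ cells were sorted from dissociated wild-type animals, and libraries were made with the Illumina TruSeq kit and sequenced on a HiSeq4000. The submitters' processing notes name TopHat, Cufflinks and the ce10 build, with no versions. The authors deposited, for each wild-type library, the Cufflinks FPKM of 42518 loci with its 95% interval. The FPKM and the upper bound were used, and the lower end was taken by symmetry and set to 0 where negative. The 2 further columns of values, the lower bounds, were not used. The tables hold no read totals. The width of the intervals put 1 fragment at 1.22 times as much FPKM in library 1 as in library 2. Above 0 FPKM were 16582 gene symbols in library 2 and 12978 in library 1.

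Tables were joined by locus, 11 gene names that had turned into dates were restored, and 1 locus per symbol was kept, the one over 10 FPKM in both libraries or else with the highest mean. Library numbers follow the deposited runs and need not match the sample labels. Nothing states that the libraries came from separate cultures. With 1 condition and 2 libraries no test was run, and no p-value is given. The text names all 10 genes, all 19 other genes of the pathway list and the defining genes of each marker list. These genes and lists were chosen with earlier results of these data known. Alternatives were other FPKM limits, scaling of each library to a common sum (TPM), upper-quartile scaling, other pseudocounts and single libraries. Planned protein and promoter sequence features were not run. Scripts in Python 3.11.15 (numpy 2.4.6, pandas 2.3.3, matplotlib 3.10.9) were tested on simulated data.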

Additional observations from a re-analysis of the deposited data

How the results depend on the processing

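The count of TGF-β genes over the FPKM limit in both libraries was 5 at a limit of 10 and 8 at a limit of 1, and lay between 4 and 6 under the other limits, rules and scalings. It was 6 in library 2 alone, where *sma-4* passed, and 6 in library 1 alone, where *daf-7* passed. In TPM, where each library has the same sum, the mean of *daf-1* was 9.22, and 4 genes passed. Every FPKM was multiplied by 0.601 in library 2 and by 0.547 in library 1 to give TPM. A limit of 10 was therefore stricter in TPM than in FPKM. Of the 19 other genes of the pathway, 13 passed at a limit of 10, 8 at a limit of 20 and 9 in TPM. The count was 15 in library 2 alone and 13 in library 1 alone. The 4 dauer pathway Smad and Ski genes, examined after the data had been seen, numbered 3 at a limit of 20 and in TPM, and 4 under the other settings. The 7 genes with separate intervals numbered 7 under both alternatives, and the median log2 difference ranged between 0.18 and 0.31. Scaling to TPM lowered the means of all 10 genes, as a change of unit, and those of 5 by more than their SD. These 5 were genes with an SD small beside their mean. Upper-quartile scaling moved none by that much. No paired analysis was possible because the values come from wild type alone, with no other group to pair. With 2 libraries, the gap between them is only a rough guide to how well a level is known, and a small gap can understate the error.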
